A study of Homo sapiens with 12 samples.

Results

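The genes described here are 10 that act in the unfolded protein response or as chaperones and degradation factors of the endoplasmic reticulum (ER): XBP1, HSPA5, DNAJB9, DNAJC3, SDF2L1, HERPUD1, EDEM1, HSP90B1, PDIA4 and CALR. They were taken by gene symbol, with every probe set that the platform annotation gave to a member and to no other gene. This gave 15 of the 22215 probe sets tested, and 10 of 11963 genes. CALR had 3 probe sets, HSP90B1, DNAJB9 and PDIA4 had 2 each, and the other members had 1. Another 2 probe sets listed HSP90B1 beside a second symbol and were not used.

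The cells were RCC4, a cell line of human clear cell renal carcinoma in which the VHL tumour suppressor does not function and hypoxia-inducible factors are therefore active. They were transfected with an siRNA against YAP (siYAP), which silences the transcriptional co-activator encoded by YAP1, or with a non-targeting siRNA (siNT), and after 2 days received 1 µM erastin or its vehicle DMSO for 7 hours. Erastin inhibits cystine uptake through system xc- and can kill cells by ferroptosis, a death by iron-dependent lipid peroxidation. The 4 groups were siYAP with erastin, siYAP with DMSO, siNT with erastin and siNT with DMSO, with 3 arrays each, and all of them carried a transfected siRNA. RCC4 is a single line, and the labels do not say how many siRNAs targeted YAP. The design asks how YAP silencing changes expression, and the erastin arrays allow that question in treated cells.

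The unfolded protein response is the signalling that adjusts gene expression when unfolded proteins build up in the ER. Its sensors are IRE1 (ERN1), ATF6 and PERK (EIF2AK3). IRE1 splices the XBP1 transcript so that it encodes an active transcription factor, ATF6 is cut in the Golgi to release another, and PERK slows translation while favouring that of ATF4. XBP1 and ATF6 raise chaperones, folding enzymes and components of ER-associated degradation (ERAD), the route by which misfolded proteins are returned to the cytosol for the proteasome.

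ATF6 and XBP1 act at the ER stress response element (ERSE), which is CCAAT, then 9 bases of any kind, then CCACG, and at the related ERSE-II, which is ATTGG, then 1 base, then CCACG. Both were searched on both strands in the 250 bases upstream of each annotated start, in RefSeq sequences on GRCh38.p14. All 10 members were matched, with 12 starts, since XBP1 and PDIA4 have 2 each. ERSE was found in 26 of 35116 promoters (0.074%) and ERSE-II in 18 (0.0513%). Either stood in 44 promoters (0.125%), 6 of them promoters of 6 of the 10 members. The members were chosen for their place in this response, so this count is not an independent test of the elements. The stretches around the matches are shown for the 6 members that held either element. Each reads 5′ to 3′ on the gene's own strand, and capitals mark the match.
XBP1, chr22:28800588-28800636, minus strand: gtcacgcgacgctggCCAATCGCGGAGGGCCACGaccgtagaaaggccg
HSPA5, chr9:125241376-125241424, minus strand: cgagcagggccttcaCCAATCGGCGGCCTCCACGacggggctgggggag
HSP90B1, chr12:103930201-103930354, plus strand: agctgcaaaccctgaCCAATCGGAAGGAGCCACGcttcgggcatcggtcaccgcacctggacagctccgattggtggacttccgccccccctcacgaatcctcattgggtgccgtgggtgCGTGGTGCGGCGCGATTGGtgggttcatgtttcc
CALR, chr19:12938369-12938417, plus strand: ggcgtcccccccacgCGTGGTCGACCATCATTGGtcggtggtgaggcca
HERPUD1, chr16:56932010-56932050, plus strand: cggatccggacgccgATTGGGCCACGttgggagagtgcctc
SDF2L1, chr22:21642099-21642139, plus strand: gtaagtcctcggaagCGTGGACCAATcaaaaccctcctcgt

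XBP1, HSPA5, HSP90B1 and CALR held ERSE, and HERPUD1 and SDF2L1 held ERSE-II. HSP90B1 had 2 ERSE matches, the nearer of them on the opposite strand, and the matches in CALR and SDF2L1 were also in reverse. The match nearest a start was that of XBP1, from -52 to -34, and the farthest was that of CALR, from -225 to -207. Neither full element was found in this window of DNAJB9, DNAJC3, EDEM1 or PDIA4, which says nothing of binding there or elsewhere. The shorter parts were common: CCAAT stood in 32% and CCACG in 33.5% of all promoters, and in 11 of the 12 member promoters each. The core of the XBP1 element, TGACGTG, occurred in 591 promoters (1.68%) and in 0 of the 12. The core of the ATF4 element, TGATGNAA, occurred in 1104 (3.14%), that of HERPUD1 among them.

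**Figure D1:**
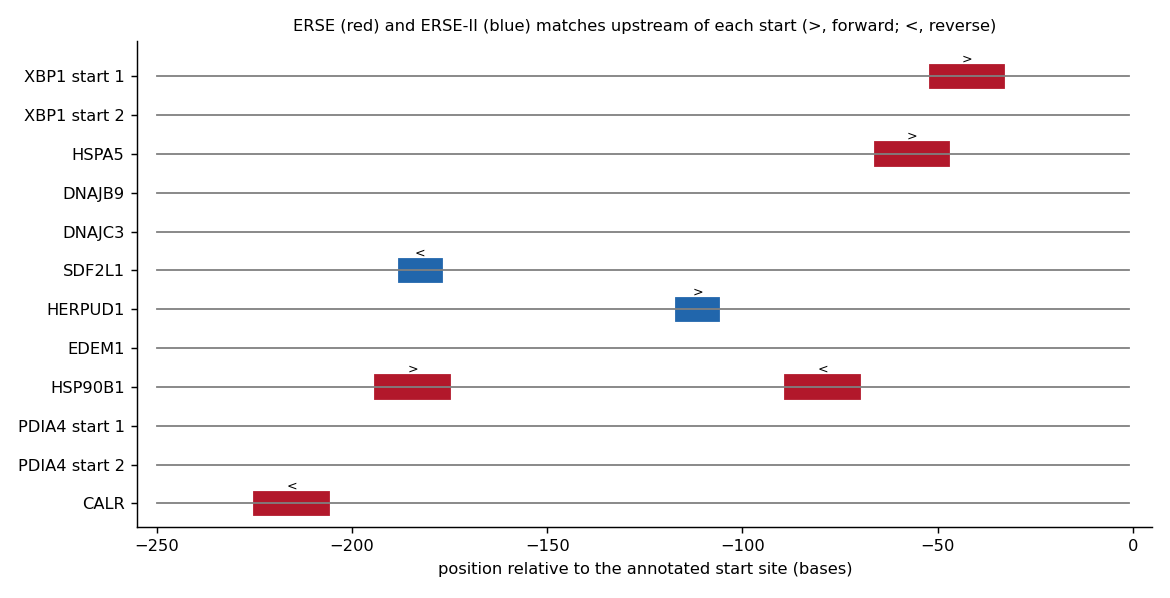
Position of ERSE (red) and ERSE-II (blue) matches in the 250 bases before each annotated start of the 10 genes; the x axis is the distance from the start in bases, and arrows give the strand of the match. The XBP1 match, from -52 to -34, lies nearest to a start, HSP90B1 has 2 matches, and DNAJB9, DNAJC3, EDEM1 and PDIA4 have none.

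Values are deposited log2 expression values, so a difference of 1 is a doubling. Levels are compared between probe sets only roughly, as bright or dim. YAP1 itself was at 4.18 to 6.21 on the 6 siYAP arrays, against 8.47 to 8.65 on the 6 siNT arrays. Array medians lay between 6.48 and 6.52, and arrays of a group correlated at 0.9956 to 0.9986. The median standard error of a log2 change was 0.0845, and the number of arrays limits this precision. The siNT erastin replicate 3 deviated most from its group, by 0.178 (root mean square over the 15 probe sets, 0.147 over all). Renal epithelial markers had median levels of 9.34 to 9.52 over the 4 groups. Endothelial, fibroblast and immune markers had medians of 4.03 to 4.75, near the dim end of the arrays. However, CD74 of the immune list, which other cell types can express, reached 9.78. RGS5 of the fibroblast and pericyte list reached 6.95, and TEK of the endothelial list 5.91.

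Tests ran over all 22215 probe sets with limma, and a probe set was called at a Benjamini-Hochberg adjusted p under 0.05. Under erastin 4 of the 15 probe sets were higher in siYAP than in siNT cells and 3 were lower, where 28.9% of all probe sets were called, 16% higher and 12.9% lower. With DMSO 3 were higher and 2 lower in siYAP cells, where 27.4% of all were called, 14.4% higher and 12.9% lower. Calls of the members thus went in both directions, as did those of all probe sets, and neither count is read as particular to these genes. The median change of the 15 was 0.02 under erastin and -0.07 with DMSO, and that of all probe sets was 0.00 and 0.02.

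Few probe sets were called with erastin. In siYAP cells 0 of the 15 probe sets were called by limma, where 0.171% of all were called (0.162% higher, 0.009% lower), and 2 of the 15 had an unadjusted p under 0.05, as did 9.91% of all. In siNT cells erastin raised 2 of the 15, HERPUD1 and XBP1, where 0.297% of all were called (0.221% higher, 0.0765% lower), and 3 of the 15 had an unadjusted p under 0.05, as did 8.76% of all. Median changes of the 15 with erastin were 0.03 in siYAP and -0.01 in siNT cells, and those of all probe sets were 0.00 in both. The interaction, which is the erastin change in siYAP cells minus that in siNT cells, called 0% of all probe sets by limma. At an unadjusted p under 0.05 it had 2 of the 15 and 9.03% of all.

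**Figure D2:**
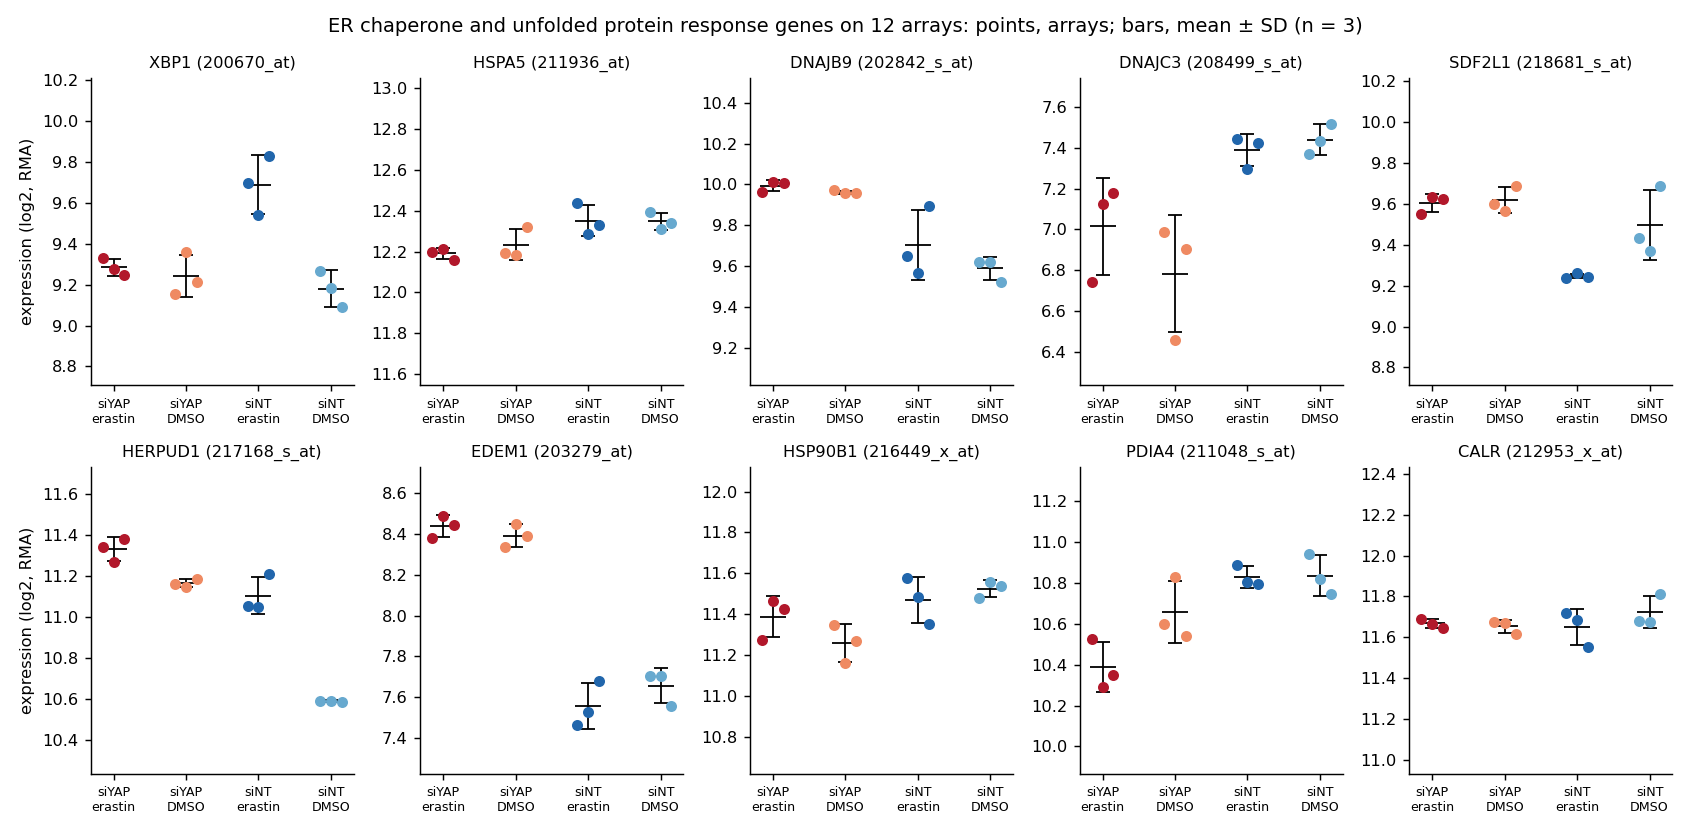
Log2 expression of the 10 genes on each of the 12 arrays, by the probe set of highest mean; points are arrays, bars the mean and SD of 3, and every panel spans the same number of log2 units around its own centre. XBP1 is high on the 3 siNT arrays with erastin, and HERPUD1 is low on the 3 siNT arrays with DMSO. EDEM1, DNAJB9 and DNAJC3 each divide the 6 siYAP from the 6 siNT arrays.

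XBP1, the transcription factor downstream of IRE1, was on average higher in siNT cells with erastin than in any other group. Its values were 9.33, 9.28 and 9.25 in siYAP cells with erastin and 9.16, 9.36 and 9.21 in siYAP cells with DMSO. In siNT cells they were 9.70, 9.54 and 9.83 with erastin and 9.27, 9.18 and 9.09 with DMSO. The 3 siNT arrays with erastin lay above the other 9, and the other groups overlapped. In siNT cells erastin raised XBP1 by 0.51 (SE 0.0813, adjusted p = 0.022), a 1.42-fold difference. In siYAP cells erastin gave 0.04 (adjusted p = 0.901, 95% interval -0.13 to 0.22). Under erastin XBP1 was 0.41 lower in siYAP than in siNT cells (adjusted p = 0.00208), and this comparison shares the siNT arrays with erastin with the rise just given. With DMSO silencing gave 0.06 (adjusted p = 0.668). The interaction was -0.47 (95% interval -0.72 to -0.22, adjusted p = 0.408), so an unequal response to erastin did not pass over all probe sets.

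The erastin call on XBP1 in siNT cells held in 15 of 21 alternatives, with adjusted p from 0.00115 to 0.246. It was lost without siNT erastin replicate 1 (0.109) or 3 (0.0655) and without siNT DMSO replicate 2 (0.0984) or 3 (0.11). A fit of only the 6 arrays compared and a replicate block also lost it (0.246 and 0.0871). A probe set does not tell the spliced from the unspliced XBP1 transcript, so these values give total XBP1 mRNA. On these bulk arrays a change in every cell and a change in a share of the cells cannot be told apart.

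HSPA5, the abundant ER chaperone BiP that also holds the sensors inactive, passed in none of the 5 comparisons. Its values were 12.20, 12.21 and 12.16 in siYAP cells with erastin, against 12.44, 12.29 and 12.33 in siNT cells with erastin. With DMSO they were 12.19, 12.18 and 12.32 in siYAP cells, against 12.39, 12.31 and 12.34 in siNT cells. Under erastin the 3 siYAP arrays lay below the 3 siNT arrays, a change of -0.16 (adjusted p = 0.0695), which passed in 6 of 21 alternatives, with adjusted p from 0.0105 to 0.228. With DMSO the groups overlapped and differed by -0.11 (adjusted p = 0.208, 95% interval -0.25 to 0.02). Erastin gave -0.04 in siYAP cells (95% interval -0.17 to 0.09) and 0.00 in siNT cells (95% interval -0.13 to 0.14), so a change larger than these bounds lay outside the intervals.

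The co-chaperones of HSPA5 went in different directions. DNAJB9, which helps HSPA5 keep IRE1 inactive, was higher in siYAP cells on its brighter probe set. There it read 9.96, 10.01 and 10.01 in siYAP cells with erastin, against 9.65, 9.57 and 9.89 in siNT cells with erastin. With DMSO it read 9.97, 9.96 and 9.96 in siYAP cells, against 9.62, 9.62 and 9.52 in siNT cells. All 6 siYAP arrays exceeded all 6 siNT arrays, and siNT erastin replicate 3 came closest to them. The change was 0.29 under erastin (SE 0.0757, adjusted p = 0.0114) and 0.37 with DMSO (adjusted p = 0.00234). DNAJB9's other probe set differed by 0.14 under erastin (adjusted p = 0.448) and 0.24 with DMSO (adjusted p = 0.181), in the same direction without passing. Without siNT erastin replicate 3 that probe set gave 0.31 under erastin (adjusted p = 0.022) and passed with DMSO (adjusted p = 0.0389), while without siYAP DMSO replicate 3 it gave 0.15 with DMSO.

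DNAJC3, an ER-lumenal co-chaperone of HSPA5 also described as an inhibitor of PERK, was lower in siYAP cells with DMSO. It read 6.99, 6.46 and 6.90 in siYAP cells with DMSO, against 7.37, 7.43 and 7.52 in siNT cells with DMSO. With erastin it read 6.74, 7.12 and 7.18 in siYAP cells, against 7.44, 7.30 and 7.42 in siNT cells. Every siYAP array lay below every siNT array, and with DMSO the SD was 0.28 in siYAP cells and 0.075 in siNT cells. The change with DMSO was -0.66 (SE 0.136, adjusted p = 0.00265), 1.58-fold lower in siYAP cells. Under erastin it was -0.37 (adjusted p = 0.0587), which passed in 10 of 21 alternatives, with adjusted p from 0.018 to 0.239. Without siYAP erastin replicate 1, the lowest of that group, the change under erastin was -0.24 (adjusted p = 0.239). The difference between the silencing effects under erastin and with DMSO was 0.28 (adjusted p = 0.673), 0.12 without siYAP DMSO replicate 2, and 0.42 without siYAP erastin replicate 1.

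SDF2L1, an ER-lumenal partner of HSPA5 co-chaperones, was higher in siYAP than in siNT cells under erastin. It was at 9.55, 9.64 and 9.63 in siYAP cells with erastin, against 9.24, 9.26 and 9.24 in siNT cells with erastin. With DMSO it was at 9.60, 9.56 and 9.69 in siYAP cells, against 9.44, 9.37 and 9.69 in siNT cells. The 3 siNT arrays with erastin were the lowest of all 12 and close together, with an SD of 0.0115. The change after silencing was 0.36 under erastin (SE 0.0771, adjusted p = 0.00343). With DMSO it was 0.12 (adjusted p = 0.305), and 0.22 without siNT DMSO replicate 3 (adjusted p = 0.0218). In siNT cells erastin gave -0.25 (adjusted p = 0.346) with no overlap of arrays, and the interaction was 0.24 (adjusted p = 0.554). Without siNT DMSO replicate 3, the highest siNT array, these values were -0.15 and 0.14.

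HERPUD1, a scaffold of the ERAD ubiquitin ligase complex at the ER membrane, was higher with silencing under both treatments and with erastin in siNT cells. Its values were 11.34, 11.27 and 11.38 in siYAP cells with erastin and 11.16, 11.15 and 11.19 in siYAP cells with DMSO. In siNT cells they were 11.06, 11.05 and 11.21 with erastin and 10.59, 10.59 and 10.58 with DMSO. The siNT arrays with DMSO lay below the other 9 arrays, and the siYAP arrays with erastin lay above all others. With DMSO HERPUD1 was 0.58 higher in siYAP than in siNT cells (SE 0.0590, adjusted p = 9.55e-06), 1.49-fold. Erastin raised it in siNT cells by 0.52 (adjusted p = 0.00184), 1.43-fold, and these comparisons share the siNT arrays with DMSO. Under erastin the change after silencing was 0.23 (adjusted p = 0.011). Erastin in siYAP cells gave 0.17 (adjusted p = 0.416), with no overlap of arrays.

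For HERPUD1 the interaction was -0.35 (95% interval -0.53 to -0.17), which did not pass over all probe sets (adjusted p = 0.408, and 0.074 to 0.775 over the alternatives). The siNT arrays with DMSO had an SD of 0.0044, while the median residual SD of the 15 probe sets was 0.0909. The call after silencing under erastin was lost without siYAP erastin replicate 3 (adjusted p = 0.0547) and in a fit of only the 6 arrays compared (0.0533). That kind of fit also lost the erastin call in siNT cells (0.1). HERPUD1 was the member with both an ERSE-II match and the ATF4 element core in the window searched. A link of these to its changes was not tested.

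EDEM1, a lectin-like factor that hands misfolded glycoproteins to ERAD, had the largest range of group means of the 10. It was at 8.38, 8.49 and 8.44 in siYAP cells with erastin, against 7.46, 7.53 and 7.68 in siNT cells with erastin. With DMSO it was at 8.34, 8.45 and 8.39 in siYAP cells, against 7.71, 7.71 and 7.56 in siNT cells. The 6 siYAP arrays lay well above the 6 siNT arrays, and within each siRNA the treatments overlapped. Silencing raised EDEM1 by 0.88 under erastin (SE 0.0705, adjusted p = 1.41e-06), 1.84-fold, and by 0.73 with DMSO (adjusted p = 5.67e-06), 1.66-fold. Erastin itself gave 0.05 in siYAP cells (adjusted p = 0.874) and -0.10 in siNT cells (adjusted p = 0.772). The interaction was 0.14 (adjusted p = 0.678).

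HSP90B1, the ER form of the HSP90 chaperones, was lower in siYAP cells with DMSO on its brighter probe set. There it read 11.35, 11.16 and 11.27 in siYAP cells with DMSO, against 11.48, 11.56 and 11.54 in siNT cells with DMSO. With erastin it read 11.27, 11.46 and 11.43 in siYAP cells, against 11.58, 11.48 and 11.35 in siNT cells. With DMSO the arrays did not overlap and the change was -0.27 (SE 0.0758, adjusted p = 0.0191), and under erastin they overlapped (-0.08, adjusted p = 0.494). The DMSO call was lost without siYAP DMSO replicate 2 (0.0815) or siNT DMSO replicate 2 (0.0651). The other probe set ranged from 8.78 to 9.32 over the 12 arrays and gave -0.16 with DMSO (adjusted p = 0.392), or -0.085 without siYAP DMSO replicate 2. Both carry the array maker's suffix for probes that can also match other transcripts, so their values may include related sequences.

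PDIA4, a thiol-disulfide oxidoreductase of the ER lumen, gave unlike results on its probe sets. On the brighter it was at 10.53, 10.29 and 10.35 in siYAP cells with erastin, against 10.89, 10.80 and 10.79 in siNT cells with erastin. With DMSO it was at 10.60, 10.83 and 10.54 in siYAP cells, against 10.94, 10.82 and 10.75 in siNT cells. The siYAP arrays with erastin were the lowest of all 12. The change after silencing was -0.44 under erastin (SE 0.0873, adjusted p = 0.00191) and -0.18 with DMSO (adjusted p = 0.167, or 0.0414 without siYAP DMSO replicate 2). In siYAP cells erastin gave -0.27 (adjusted p = 0.378). PDIA4's other probe set lay between 9.51 and 9.84 on all arrays and gave -0.09 under erastin (adjusted p = 0.363) and -0.13 with DMSO (adjusted p = 0.158).

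CALR, the calcium-binding lectin chaperone of newly made glycoproteins, was called on its dimmest probe set alone. There it was at 7.85, 7.79 and 7.73 in siYAP cells with erastin, against 8.10, 7.98 and 8.28 in siNT cells with erastin, a change of -0.33 (SE 0.0722, adjusted p = 0.00386). With DMSO the values were 7.90, 7.88 and 7.87 in siYAP cells, against 8.08, 8.01 and 8.00 in siNT cells. The DMSO change of -0.14 did not pass (adjusted p = 0.18) although the arrays did not overlap. The brightest CALR probe set ranged from 11.55 to 11.81 over the 12 arrays and gave 0.02 under erastin (adjusted p = 0.9) and -0.07 with DMSO (adjusted p = 0.487). The remaining probe set gave 0.21 under erastin (adjusted p = 0.23), and siNT erastin replicate 3 stood low on it, at 9.53 against 10.01 to 10.17 on the other 11 arrays. Without that replicate the value was 0.03. By their suffix, the brightest and the remaining probe set can also match other transcripts.

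**Figure D3:**
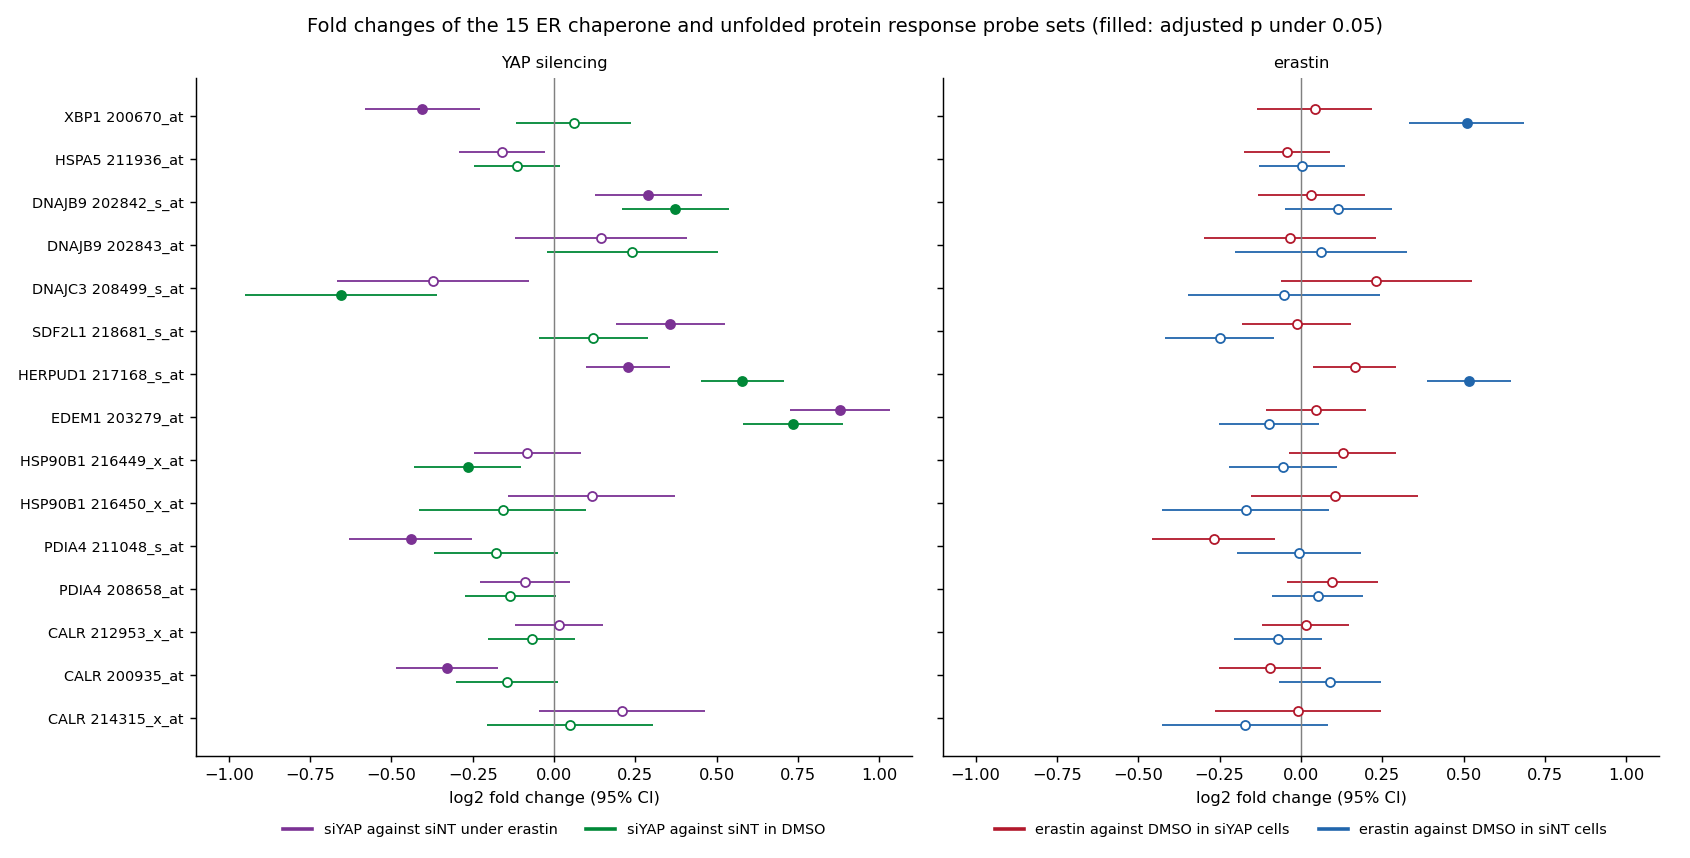
Log2 fold change with its 95% confidence interval of each of the 15 probe sets, after YAP silencing (left) and with erastin (right); filled points had an adjusted p under 0.05 over all probe sets. EDEM1, HERPUD1 and the brighter DNAJB9 probe set are filled in both silencing comparisons, and XBP1 and HERPUD1 are the filled points with erastin, both in siNT cells.

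The actin 3′ minus 5′ difference, a measure that is larger where RNA is less intact, was larger in siYAP cells with erastin than in the other groups. The actin control probe sets gave a 3′ minus 5′ difference of 3.54 ± 0.18 (log2, SD, n = 3) in siYAP cells with erastin, against 2.59 ± 0.95 in siYAP cells with DMSO and 2.26 ± 0.69 in siNT cells with erastin. The arrays of siYAP cells with erastin, at 3.35 to 3.71, overlapped neither those of siYAP cells with DMSO (1.49 to 3.14) nor those of siNT cells with erastin (1.49 to 2.82). GAPDH gave group means of 0.15 to 0.22, with 0.17 in siYAP cells with erastin and the highest in siYAP cells with DMSO. In siNT cells with DMSO the actin difference was 2.68 ± 0.28. The part of this in any difference of silencing under erastin (EDEM1, HERPUD1, DNAJB9, SDF2L1, XBP1, PDIA4 and CALR) was not tested, nor its part in the erastin differences in siYAP cells, those of the PERK and ATF4 list given below among them.

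The wider pathway was read from 5 lists of other genes, each gene by its probe set of highest mean. Among all 11963 genes read this way, 33% were called after silencing under erastin and 31.6% with DMSO, and erastin itself called 0.234% in siYAP cells and 0.435% in siNT cells. The median change of all genes was 0.01 and 0.02 after silencing, under erastin and with DMSO, and 0.00 with erastin in both cell groups. At an unadjusted p under 0.05 erastin had 9.54% of all genes in siYAP cells and 9.88% in siNT cells.

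The sensors, their processing proteases and DNA-binding partners held 14 genes, all measured. Under erastin 1 was higher and 2 were lower in siYAP cells, and with DMSO 1 was higher and 1 lower. NFYB, a subunit of the factor that binds CCAAT, was 0.48 lower under erastin (adjusted p = 0.00315) and 0.37 lower with DMSO (adjusted p = 0.0159). MBTPS1, the Golgi protease that starts the cleavage of ATF6, was 0.25 higher under erastin (adjusted p = 0.0385) and 0.31 higher with DMSO (adjusted p = 0.0139). MBTPS2, which completes that cleavage, was 0.23 lower under erastin (adjusted p = 0.0442) and 0.18 lower with DMSO, which did not pass (adjusted p = 0.112). The median of the list was 0.05 in both silencing comparisons. ERN1, ATF6 and EIF2AK3, named after their values were seen, passed in none of the 5 comparisons. Their lowest adjusted p by limma was that of ATF6 after silencing under erastin (a change of 0.30, adjusted p = 0.0699). ERN1 had group means of 5.40 to 5.54, below the array medians, so its lack of a call is weak evidence of no change. With erastin 0 of the 14 passed by limma in either cell group, and 0 had an unadjusted p under 0.05.

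Of 25 other folding factors measured of 28 listed, 8 were higher and 6 lower in siYAP cells under erastin, and 5 were higher and 6 lower with DMSO. The largest changes were falls of FKBP14, an ER prolyl isomerase, by 0.94 under erastin and 1.04 with DMSO. TMX1, a membrane-bound thioredoxin-like oxidoreductase, fell by 0.85 under erastin and 0.81 with DMSO. CNPY2 rose by 0.41 under erastin and 0.35 with DMSO. SDF2, the paralogue of SDF2L1, rose by 0.42 under erastin. With DMSO SDF2 was also higher in siYAP cells, at 9.19 against 8.99 in siNT cells. CRELD2, an ER stress-induced factor, fell by 0.24 under erastin and 0.31 with DMSO. The list's median was 0.02 under erastin and -0.01 with DMSO. With erastin 0 of the 25 were called by limma in either cell group, and 2 in siYAP and 1 in siNT cells had an unadjusted p under 0.05.

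The ERAD list, HERPUD1 and EDEM1 left out, held changes of over 1 log2 unit in both directions. Of 18 genes measured of 25 listed, 3 were higher and 4 lower in siYAP cells under erastin, and 4 were higher and 4 lower with DMSO, with medians of -0.01 and -0.06. EDEM3, a mannosidase related to EDEM1, stood at 5.98 in siYAP and 7.53 in siNT cells with DMSO, a change of -1.55 (2.93-fold lower, adjusted p = 4.63e-06), and changed by -1.60 under erastin (adjusted p = 3.77e-06). UBE2G2, a ubiquitin-conjugating enzyme of ERAD, stood at 10.88 in siYAP and 9.49 in siNT cells with DMSO, a change of 1.38 (2.61-fold higher, adjusted p = 2.73e-08), and changed by 1.55 under erastin (adjusted p = 1.5e-08). FAF2, which recruits the VCP ATPase to the ER, changed by -1.17 under erastin and -1.18 with DMSO (adjusted p = 2.4e-07 and 2.05e-07). DERL2, a membrane component of the ERAD machinery, changed by -0.87 under erastin and -1.01 with DMSO (adjusted p = 8.84e-06 and 2.68e-06). EDEM1 and EDEM3 thus moved in opposite directions on the same arrays. With erastin 0 of the 18 were called by limma in either cell group, and 0 in siYAP and 1 in siNT cells had an unadjusted p under 0.05.

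Among 24 genes of ER translocation and signal peptide processing measured of 28 listed, 7 were higher and 5 lower in siYAP cells under erastin, and 5 were higher and 3 lower with DMSO. The medians were -0.02 and 0.09. Parts of the signal recognition system went both ways. SRP72, of the particle itself, changed by -1.43 under erastin and -1.41 with DMSO (adjusted p = 1.36e-07 in both). SRPRA, of its receptor, changed by 0.79 under erastin (adjusted p = 1.85e-07) and 0.60 with DMSO (adjusted p = 1.23e-06). SRPRB, the receptor's other subunit, and SRP19, another protein of the particle, were 0.40 and 0.36 higher under erastin. With DMSO both were also higher in siYAP cells, SRPRB at 10.75 against 10.52 in siNT cells and SRP19 at 10.71 against 10.47. Neither change is read as particular to erastin. SSR3, of the translocon-associated complex, and SPCS3, of the signal peptidase, were 0.40 and 0.28 lower with DMSO. Under erastin both were also lower in siYAP cells, SSR3 at 8.89 against 9.21 in siNT cells and SPCS3 at 11.34 against 11.63. Neither change is read as particular to DMSO. With erastin 0 of the 24 were called by limma in either cell group, and 2 in each had an unadjusted p under 0.05.

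The PERK and ATF4 list was the one in which erastin called most members. The lists were chosen with earlier results of these data known, so this ranking is not an independent test. PERK activity was not measured, and its part in the changes of this list was not tested. Of 13 genes measured of 15 listed, erastin raised 9 in siYAP cells and 10 in siNT cells and lowered 0, with median changes of 0.53 and 0.60. CHAC1, which degrades glutathione and is induced by ATF4, rose by 1.64 in siYAP cells (3.12-fold) and 1.63 in siNT cells (3.10-fold). DDIT4, an inhibitor of mTORC1, rose by 1.15 in siYAP and 1.52 in siNT cells, and ASNS, asparagine synthetase, by 1.12 in siYAP and 0.81 in siNT cells. NUPR1, a stress-induced nuclear protein, rose by 0.76 in siYAP and 0.58 in siNT cells. STC2, a secreted glycoprotein, rose by 0.77 in siNT cells. In siYAP cells STC2 was also higher with erastin, at 10.59 against 9.91 with DMSO.

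Silencing moved that list mostly downward, with 1 higher and 9 lower in siYAP cells under erastin and 2 higher and 7 lower with DMSO. Medians were -0.39 under erastin and -0.43 with DMSO. ASNS was 0.80 lower in siYAP cells under erastin and 1.11 lower with DMSO, and TRIB3, a pseudokinase, was 0.72 and 0.90 lower. DDIT4 was 1.17 lower under erastin and 0.80 lower with DMSO, and CHAC1 was 0.74 lower under erastin and 0.75 lower with DMSO. ATF3, a stress-induced transcription factor, was 1.00 higher with DMSO (adjusted p = 9.46e-08) and 0.54 higher under erastin (adjusted p = 1.07e-05).

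**Figure D4:**
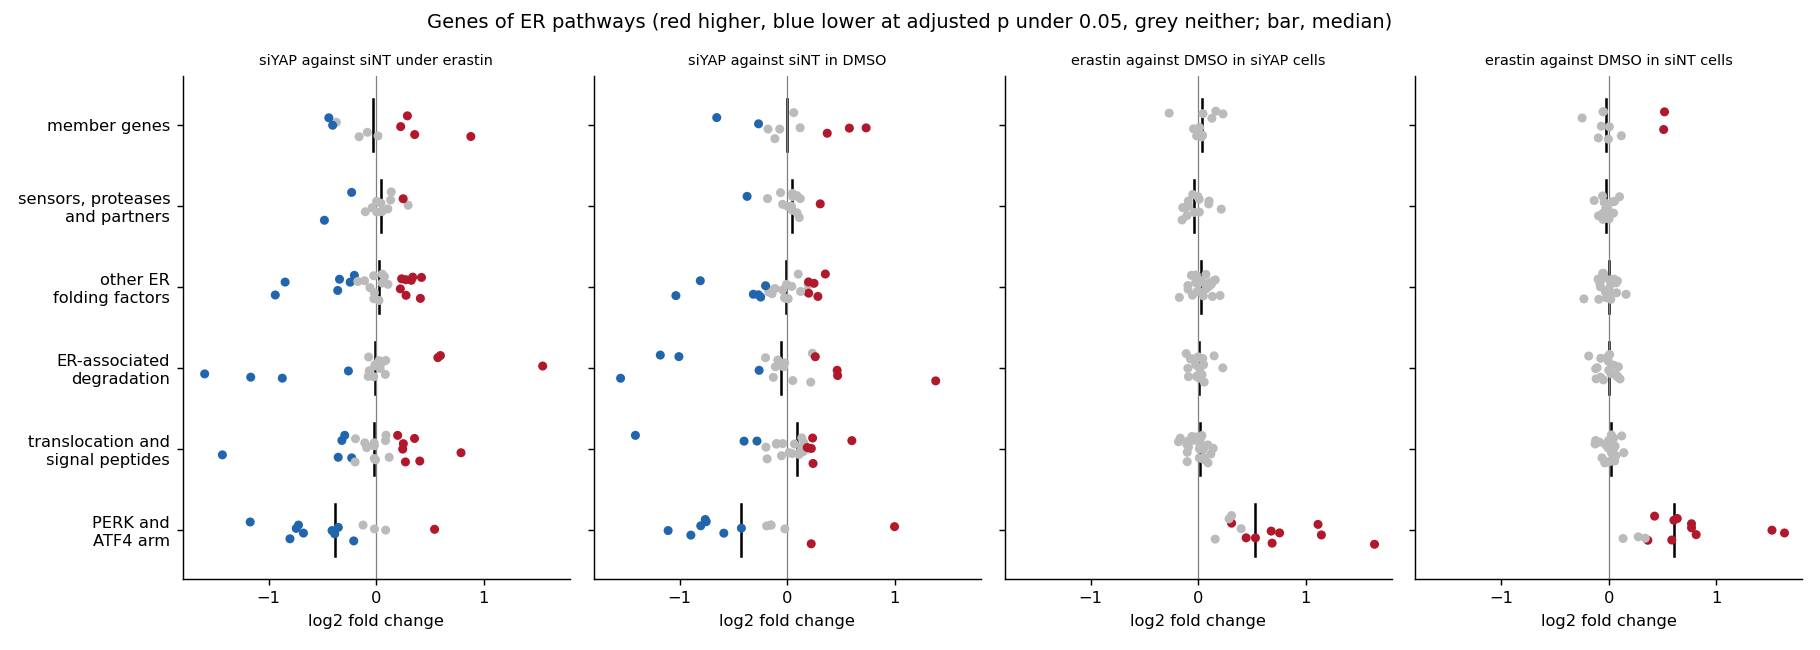
Log2 fold change of each gene of the 10 members and of 5 other lists of ER pathways, in 4 comparisons; each point is a gene by its probe set of highest mean, red and blue mark genes higher and lower at an adjusted p under 0.05, and the bar is the median. The PERK and ATF4 list lies to the right with erastin in both cell groups (medians 0.53 and 0.60) and mostly to the left after silencing, and the other lists lie around 0 with calls on both sides after silencing.

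The genes with patterns most like EDEM1 and HERPUD1, the members with the largest range of group means (0.88 and 0.74), were found by the root mean square difference over the 12 arrays after each probe set was centred. Nearest to EDEM1 were SEC24A (0.0610), PTPRE (0.0641), SRPX (0.0651), MAMLD1 (0.0686) and OCRL (0.0691). SEC24A stood at 9.73 in siYAP cells with erastin and 9.77 with DMSO, against 8.88 in siNT cells with erastin and 9.01 with DMSO. Nearest to HERPUD1 were CCNG2 (0.0788), EGR1 (0.0838), GABARAPL1 (0.0847), VAV3 (0.102) and N4BP2L1 (0.109). CCNG2 stood at 9.22 in siYAP cells with erastin and 9.16 with DMSO, against 9.05 in siNT cells with erastin and 8.67 with DMSO. Like HERPUD1, these 5 had their lowest group mean in siNT cells with DMSO, which goes with their selection for likeness to it.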

How the data were processed

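RNA of RCC4 cells was measured on 12 Affymetrix arrays. The deposited log2 values were made by the authors with RMA in Affymetrix Expression Console, per the submitters' processing notes. RMA gives all arrays the same distribution of signals, so a change of total RNA per cell is not seen. Versions, array type and scan dates are not stated there, so batches were not tested. Running numbers in the sample titles are lower for all siNT than for all siYAP samples, and what they stand for is not stated. If they follow the order of handling, its effect cannot be told apart from that of silencing. The labels place RNA collection 2 days after transfection and also describe 2 days followed by 7 hours of treatment.

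Of 22277 probe sets, 62 array controls were left out. A platform annotation gave 1 symbol for 19065, several for 1043 and none for 2107; RefSeq matched 19053 and changed 0. Group means were fitted over the 12 arrays with limma 3.58.1 in R 4.3.3 (8 residual and 4.27 prior degrees of freedom). Adjusted p-values are Benjamini-Hochberg over 22215 probe sets within each of 5 comparisons. Replicates are triplicates called biological; how separately they were cultured is not stated, so p-values cover only the spread between these samples, which may be technical. Groups came from sample titles.

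The test was checked on simulated data. Members and pathway lists were chosen with earlier results of these data known. Named genes were all members, YAP1, up to 4 called genes of largest change per list and comparison, and the 5 nearest patterns of 2 members. Alternatives were median centring, quantile normalization, only the 6 arrays compared, a replicate block, removal of the dimmest 30%, 1 probe set or the mean per gene, a trended robust variance, array weights, the submitters' zero transformation and leaving out each array.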

Additional observations from a re-analysis of the deposited data

How the results depend on the processing

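No called member value changed sign under any alternative run, and 33 of 1540 recomputed member values changed sign with neither value called. Leaving out 1 array gave a call to 7 member values and took it from 7; the other alternatives gave it to 15 and took it from 19. A fit of only the 6 arrays compared called 10 probe sets and 0 members with erastin in siNT cells, against 66 and 2; there HERPUD1 had adjusted p = 0.1. That fit and the mean of probe sets also lost DNAJB9 under erastin (0.0536 and 0.0918), and the mean lost HSP90B1 with DMSO (0.097). Removing the dimmest 30% called 124 with erastin in siNT cells. A trended robust variance called 88 with erastin in siYAP cells, 170 in siNT cells and 7 for the interaction, and array weights called 70, 186 and 3. With 1 probe set per gene 4173 and 4030 were called after silencing under erastin and with DMSO, and with their mean 3986 and 3896, since fewer features were tested (6415 and 6079 otherwise). The zero transformation, which asks for all 3 arrays beyond 1 log2 unit, called 341 and 388, and 0 members in both. Leaving out 1 array gave 19 to 49 probe sets with erastin in siYAP cells, where 38 were called with all arrays, 34 to 50 probe sets and 1 to 2 members in siNT cells, and 0 to 1 for the interaction.

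Same-numbered arrays deviated together by correlations of -0.425 to 0.167 over the 4 comparisons, so the numbers were not taken to pair the samples. With the replicate block, 30 probe sets and 0 members were called with erastin in siYAP cells, 33 and 1, HERPUD1, in siNT cells (XBP1 adjusted p = 0.0871), 6016 and 7 after silencing under erastin, and 5704 and 5 with DMSO. The interaction had no fit with 6 arrays. Causes were not tested. Probe sets near the dim end have compressed changes.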
